A study of Mus musculus with 12 samples.

Results

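The 10 genes described here encode fibroblast growth factor (FGF) receptors (Fgfr1, Fgfr2, Fgfr3), the receptors' docking protein (Frs2) and inhibitors that act on the same pathway (Spry1, Spry2, Spry4, Spred1, Spred2, Dusp6). They were chosen by name as a pathway, and each N6-methyladenosine (m6A) peak that overlapped 1 of their RefSeq gene spans by at least 1 base was counted. All 10 were among the 13753 protein-coding genes with a peak in any list, out of 21887 in the gene table. The study compared neural stem cell-like cells (iNSCs) with the mouse spermatogonial stem cells (SSCs) they were derived from, with 3 m6A immunoprecipitation libraries and so 3 peak lists of each. iNSCs were made on laminin by 24 h in SSC medium with 1 µM retinoic acid. They were then kept in a neural medium with 10 µM SB431542, which blocks TGF-β receptor kinases, and 20 ng/mL basic FGF (FGF2). SSCs were grown on inactivated STO fibroblast feeders with 10 ng/mL basic FGF, 20 ng/mL GDNF, 20 ng/mL EGF and 10 ng/mL LIF. Basic FGF was thus present in the medium of both cell types, at different doses, and retinoic acid, SB431542, the basal medium, the feeders, the FGF dose and the GDNF, EGF and LIF of the SSC medium cannot be told apart as differences between the groups. The labels give no strain or age of the source animals and do not say whether replicates were separate cultures, so the spread behind each p-value may be no more than technical.

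FGFs bind receptor tyrosine kinases together with heparan sulfate on the cell surface. The activated receptor phosphorylates FRS2, which recruits GRB2 and SOS and so switches on RAS and the ERK kinases. Sprouty and SPRED proteins block this route upstream of ERK, DUSP6 removes phosphates from ERK itself, and genes of these inhibitors are known targets of the same signal, which makes them a negative feedback. FGF2 is a growth factor used to culture both spermatogonial and neural stem cells. m6A, a methyl group on mRNA adenosines, is often found in long exons and around stop codons, and reader proteins such as YTHDF1 bind it. Input libraries were not used here, so where a peak is missing, an absent transcript and an unmarked one cannot be told apart.

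The iNSC lists held 13913 to 16060 peaks and the SSC lists 19728 to 27597, with median widths of 368 to 433 bases in iNSCs and 193 to 205 bases in SSCs. Protein-coding genes with a peak numbered 6953, 7512 and 7423 in the iNSC lists, against 10320, 8523 and 10361 in the SSC lists. Counts of marker and pathway genes with a peak are to be read beside these totals. The lists carry no read counts, so depth is unknown. Groups follow the sample titles, since the labels' cell type entry contradicts the title in 12 of 12 samples. Of 12 germ cell markers, 0, 0 and 1 had a peak in the iNSC lists, against 7, 6 and 8 in the SSC lists. The neural label was not borne out in the same way: of 10 neural stem cell markers, 3 had a peak in each iNSC list, against 6, 4 and 6 in the SSC lists, and Sox1, Fabp7 and Hes5 had none in any list. Of 10 testis somatic cell markers, 2 had a peak in each iNSC list, against 6, 7 and 5 in the SSC lists. Of 10 fibroblast markers, 5, 4 and 5 had a peak in the iNSC lists, against 6, 4 and 9 in the SSC lists. The part of these other cells in the results below was not tested, and fewer cells of a type and less RNA per cell cannot be told apart in bulk libraries.

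Among the 3 Sprouty genes of the 10, Spry2 and Spry4 carried m6A peaks in all 6 lists, whereas Spry1 carried them in the 3 SSC lists and in no iNSC list. Frs2 and Spred2 also had peaks in all 6 lists. Fgfr1 and Spred1 had peaks in every iNSC list and in 2 SSC lists. Fgfr2 and Fgfr3 had them in 2 SSC lists and no iNSC list, and Dusp6 had them in 1 list of each group. In all, 6, 7 and 6 of the 10 genes had a peak in the iNSC lists, against 9, 5 and 10 in the SSC lists. SSC replicate 2, the shortest SSC list, was the one without peaks in Fgfr1, Fgfr2, Fgfr3 and Spred1. SSC-only stands for a peak in 3 of 3 SSC lists and in 0 of 3 iNSC lists, and iNSC-only for the opposite. By that rule 1 of the 10 genes was SSC-only (Spry1), beside 10.9% of all genes with a peak, and 0 were iNSC-only, beside 2.44%. Peaks in all 6 lists were found in 4 of the 10 genes, beside 30.6% of all genes with a peak. These shares were near those of all genes, so the account below is of single genes and sites and not of the pathway as a group.

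The FGF receptor genes held few and mostly weak peaks. Fgfr1, the receptor gene with peaks in most lists, had 1, 1 and 2 peaks in the iNSC lists and 1, 0 and 1 in the SSC lists. These lay at opposite ends of its 56960-base span on chromosome 8. A peak of 671 bases that began at the annotated gene start (chr8:25518759-25519429) was listed in iNSC replicates 1 and 3 and in no SSC list. Its score stood at percentiles 20.9 and 77.1 of those lists. The percentile is the rank of a peak's score among all peaks of its list, from 0 for the weakest to 100 for the strongest with tied scores at their mean rank, and it orders peaks only within that list. A site near the gene end (chr8:25573745-25575075) was listed in iNSC replicates 2 and 3 and in SSC replicates 1 and 3, with the same first base in all 4 lists. Its percentiles were 41.3 and 36.0 in the iNSC lists and 44.3 and 8.79 in the SSC lists. Peaks covered 671, 1331 and 1952 bases of Fgfr1 in iNSCs, against 1040, 0 and 1059 bases in SSCs, and the groups overlapped (difference of means 618 bases, exact two-sided permutation p = 0.4). The Fgfr1 difference was 268 bases without SSC replicate 2, 301 without iNSC replicate 3 and 942 without iNSC replicate 1, where the groups did not overlap (exact permutation p = 0.1).

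Fgfr2 and Fgfr3 had no peak in any iNSC list. Fgfr2 had 2, 0 and 2 peaks in the SSC lists, at 4 different sites of its 104358-base span. SSC replicate 1 listed 2 sites near the gene end, the stronger of them 881 bases wide at percentile 70.9, and SSC replicate 3 listed a 54-base and a 162-base peak elsewhere in the span, at percentiles 28.9 and 31.1. No Fgfr2 site was therefore listed in more than 1 library. Fgfr3 had 2, 0 and 1 peaks in the SSC lists, again at 3 different sites, of 206, 149 and 7 bases. The 206-base peak of SSC replicate 1 (percentile 70.6) began at the second annotated start of the gene, and the 7-base peak of SSC replicate 3 stood at percentile 6.14. Covered bases overlapped between the groups for both genes (exact two-sided permutation p = 0.4 each). The differences of means, -462 bases for Fgfr2 and -121 for Fgfr3, were -108 and -3.5 without SSC replicate 1 and -694 and -181 without SSC replicate 2. Without SSC replicate 2, Fgfr2 and Fgfr3 would count as SSC-only, which gives 3 such genes in place of 1. The share of all genes so called was not computed without that list. A peak in SSC lists alone, in any number of them, was found in 3 of the 10 genes (Fgfr2, Fgfr3 and Spry1), beside 38.8% of all genes with a peak. The reverse, a peak in iNSC lists alone, was found in 0 of the 10, beside 5.29%. Outside the 10 genes, the receptor genes Fgfr4 and Fgfrl1 also had no peak in any iNSC list, against 1, 0 and 2 peaks each in the SSC lists.

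Frs2, the docking gene that links the receptors to RAS, had among the best-ranked peaks of the 10 genes in all 6 lists, and the sites around that peak differed between the groups. Its strongest site (chr10:117072121-117074879) was listed in every library, at percentiles of 92.3, 90.9 and 91.8 in iNSCs and 95.8, 90.2 and 93.6 in SSCs. The 3 iNSC percentiles are those of a score of 3100, called the capped score here, which many peaks of a list share. It is not the highest score, since the top peak of each list stood at 3215.9 to 3233.06. All 6 peaks ended at the same base, 117074879, the edge nearer to the gene start, and they reached 2759, 2025 and 1689 bases towards the gene end in iNSCs, against 1644, 1668 and 1517 bases in SSCs. A second site farther along (chr10:117070127-117071944) was listed in 3 of 3 iNSC lists, with peaks of 1114, 1680 and 891 bases, and in no SSC list. Its percentiles were 24.2, 28.6 and 27.8, so it lay in the weaker part of each iNSC list. Nearer to the gene start, an 86-base site (chr10:117102113-117102198, percentiles 55.0, 44.6 and 48.7) and an 83-base site that ends at the annotated start (chr10:117148392-117148474, percentiles 5.62, 26.2 and 70.7) were listed in 3 of 3 SSC lists and in no iNSC list. Peaks covered 4037, 3869 and 2744 bases of Frs2 in iNSCs, against 2222, 1837 and 1686 bases in SSCs. The groups did not overlap, with a mean of 3550 ± 703 bases in iNSCs and 1915 ± 276 in SSCs (SD, n = 3 each), a difference of 1635 bases. The exact two-sided permutation test gave p = 0.1, the smallest that 3 against 3 allows, and 0.301 after Benjamini-Hochberg adjustment over the 13753 genes. No gene could pass 0.05 in this design. Among the better-scoring 50% of peaks per list the Frs2 difference was 439 bases and the groups overlapped (exact permutation p = 0.2).

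The Sprouty genes encode inhibitors that act at several points between receptor and RAF, and Spry1 stood apart from its relatives in where it was listed. Spry1 (chromosome 3, span of 4653 bases) had 0 peaks in each iNSC list, against 2, 1 and 3 peaks in the SSC lists. The main Spry1 site (chr3:37642555-37644599) covered the last part of the gene and was listed in SSC replicates 1, 2 and 3 with 1757, 2044 and 2045 bases, all from the same first base. Its percentiles were 93.6, 37.7 and 94.3, so it was among the strongest peaks of SSC replicates 1 and 3 and of middling rank in SSC replicate 2. Smaller peaks nearer to the gene start were listed in SSC replicate 3 alone (257 bases) and in SSC replicates 1 and 3 (168 and 112 bases). Spry1 covered bases were 0, 0 and 0 in iNSCs, against 1925, 2044 and 2414 in SSCs, so the groups did not overlap (difference of means -2128 bases, exact two-sided permutation p = 0.1, adjusted p = 0.301). The SSC-only call held with lists of equal length and without each library in turn, and it was lost in the better-scoring 50% of each list because of SSC replicate 2, where the difference in covered bases was -1267 and the groups overlapped (exact permutation p = 0.4).

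Spry2 (chromosome 14, span of 4873 bases) had 2 peaks in each of the 6 lists, at the same 2 sites. The peak of 232 bases at the annotated gene start (chr14:105896588-105896819) had identical edges in all 6 lists, with percentiles of 59.6, 70.1 and 81.3 in iNSCs and 48.6, 85.8 and 67.0 in SSCs. The site over the last part of the gene (chr14:105891947-105893801) had 1855 bases in each iNSC list, against 1199, 1508 and 1855 bases in the SSC lists, so SSC replicate 3 equalled the iNSC lists. Its percentiles were 80.5, 90.9 and 91.8 in iNSCs and 54.7, 47.4 and 34.5 in SSCs. Lists of different length and score cap do not allow a test of these ranks. Spry2 covered bases were 2087 in each iNSC list and 1431, 1740 and 2087 in the SSC lists (difference of means 334 bases, exact two-sided permutation p = 0.4). The Spry2 difference was 174 bases without SSC replicate 1 and 502 without SSC replicate 3. It was 1030 bases at equal list length and 1533 among the better-scoring 50% of peaks per list, and in both settings the groups did not overlap (exact permutation p = 0.1 each).

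Spry4 (chromosome 18, span of 15101 bases) had a single peak in each of the 6 lists, and all 6 shared the edge nearer to the gene start. The peaks were 3607, 3583 and 3659 bases wide in iNSCs, against 2096, 4470 and 3938 bases in SSCs. The 3 iNSC peaks were at the capped score (percentiles 92.3, 90.9 and 91.8), while the SSC peaks stood at percentiles 82.6, 46.7 and 80.3. Spry4 covered bases averaged 3616 ± 38.9 in iNSCs and 3501 ± 1246 in SSCs (SD, n = 3 each; exact two-sided permutation p = 1). The difference of means, 115 bases, turned to -588 bases without SSC replicate 1, so no direction is read from it.

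**Figure D1:**
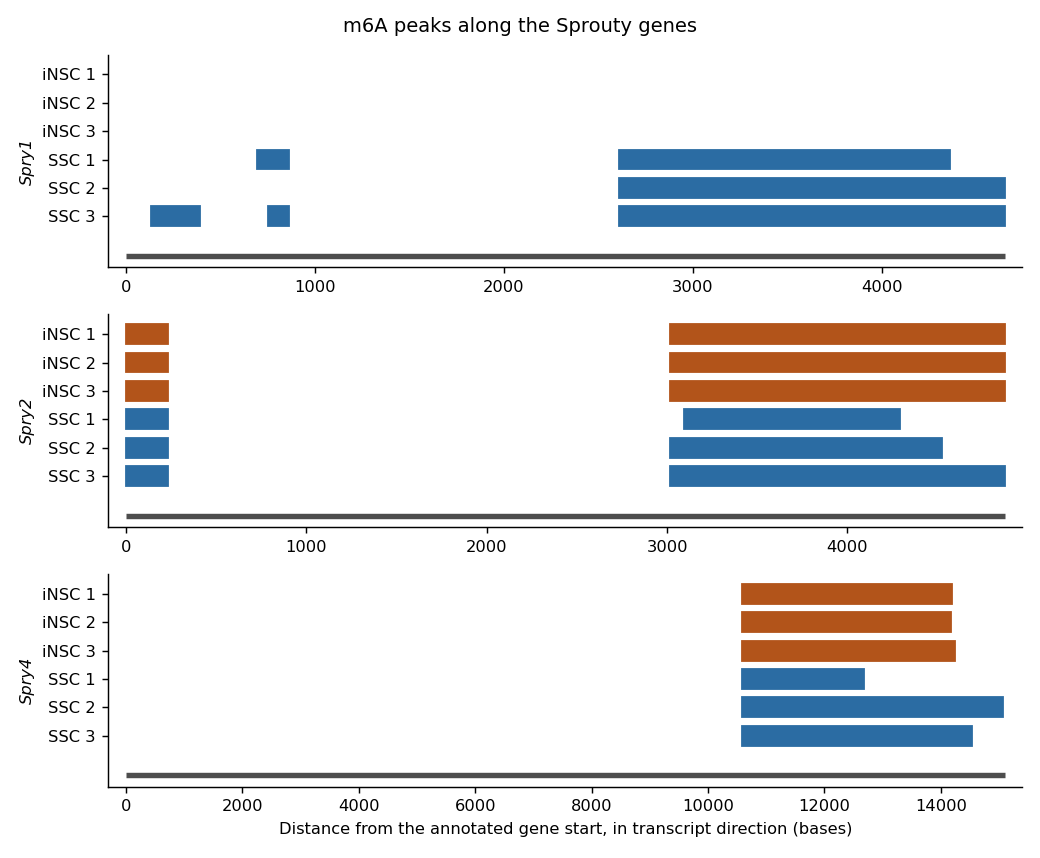
Peaks along Spry1, Spry2 and Spry4 in each list; the x axis is the distance in bases from the annotated gene start in transcript direction, each bar is a peak drawn to scale (iNSC above in orange, SSC below in blue), and the grey line is the gene span. Spry1 has no bar in the 3 iNSC rows, Spry2 has 2 bars in every row, and the Spry4 bars start at the same base in every row.

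The SPRED genes encode Sprouty-related inhibitors of RAS activation that bind neurofibromin. Spred1 (chromosome 2, span of 61209 bases) had 1, 2 and 1 peaks in the iNSC lists, against 1, 0 and 1 in the SSC lists. Its site at chr2:117177302-117179295 was listed in the 3 iNSC lists with 1994, 1540 and 1935 bases (percentiles 70.2, 90.9 and 76.6). Of the SSC lists only replicate 1 held that site, with 1812 bases at percentile 26.1, and the peak of SSC replicate 3 lay elsewhere, near the gene start, with 297 bases at percentile 22.9. Spred1 covered bases were 1994, 1642 and 1935 in iNSCs, against 1812, 0 and 297 in SSCs, and the groups overlapped (difference of means 1154 bases, exact two-sided permutation p = 0.2). When every list was shortened to its 13913 best-scoring peaks, the SSC peaks of Spred1 dropped out and the gene became iNSC-only, as did Fgfr1. That setting removes more of the SSC lists and so favours iNSC-only calls by construction. Spred1 was also iNSC-only in the better-scoring 50% of each list, with a difference of 1823 bases (exact permutation p = 0.1). Without SSC replicate 1 the Spred1 difference was 1708 bases (exact permutation p = 0.1), and without SSC replicate 2 it was 802 bases (exact permutation p = 0.2).

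Spred2 (chromosome 11, span of 99585 bases) had 3, 3 and 4 peaks in the iNSC lists, against 4, 3 and 3 in the SSC lists, but not at the same sites. A 178-base site (chr11:19998120-19998297) was listed in 3 of 3 SSC lists and in no iNSC list, with the same edges each time and percentiles of 20.0, 56.0 and 38.3. A 65-base site 3′ of it (chr11:20008413-20008477) was listed in 3 of 3 iNSC lists and in no SSC list, at percentiles 25.8, 66.1 and 63.7. The next site (chr11:20018052-20018494) was listed in all 6, at percentiles 76.1, 80.4 and 79.3 in iNSCs and 69.5, 27.5 and 73.1 in SSCs. The last site (chr11:20020782-20024026) ran 3245 bases to the gene end in each iNSC list, against 3106 bases in 2 pieces in SSC replicate 1, 1587 bases in SSC replicate 2 and no peak in SSC replicate 3. Spred2 covered bases were 3753, 3647 and 4156 in iNSCs, against 3620, 2102 and 1019 in SSCs. The groups did not overlap, although SSC replicate 1 came close to iNSC replicate 2 (difference of means 1605 bases, exact two-sided permutation p = 0.1, adjusted p = 0.301). With peaks at least 100 bases wide the Spred2 difference was 1542 bases and the groups overlapped (exact permutation p = 0.2), and without SSC replicate 3 it was 991 bases.

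**Figure D2:**
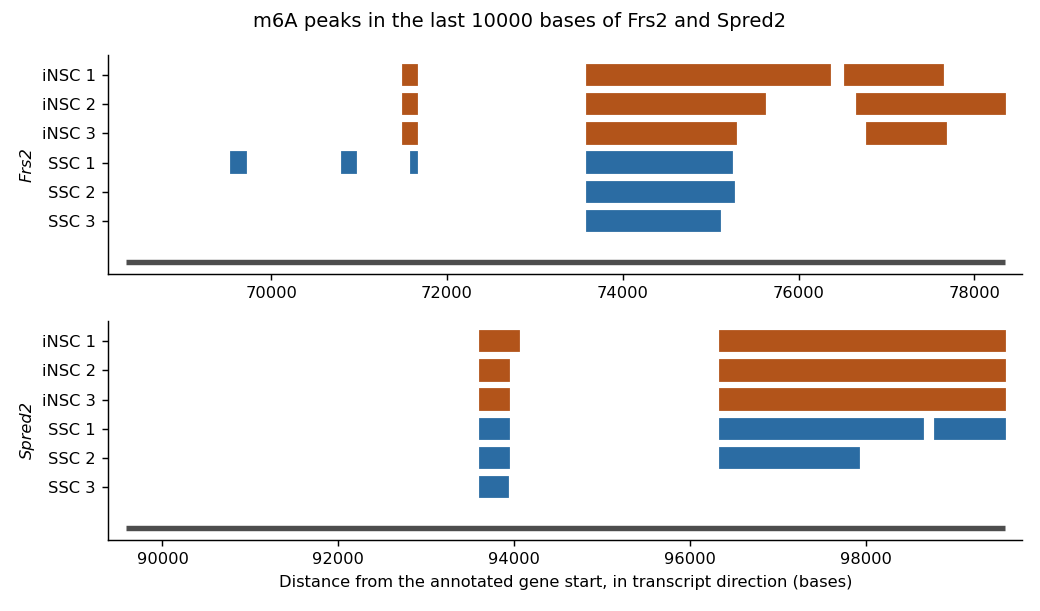
Peaks in the last 10000 bases of Frs2 and Spred2 in each list, drawn as in the plot of the Sprouty genes, with the x axis in bases from the annotated gene start. The 3 iNSC rows of Frs2 hold a bar beyond the shared site that no SSC row has, and the last Spred2 site spans 3245 bases in each iNSC row and is shorter or missing in the SSC rows.

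Dusp6, which encodes a phosphatase of ERK and is a widely used readout of FGF signalling, had a peak in only 1 list of each group, at opposite ends of its 4259-base span on chromosome 10. The iNSC replicate 2 peak covered the last 1498 bases of the gene at percentile 0.956, the lowest percentile of any peak in the 10 genes. It overlapped the lncRNA gene Gm34921, which RefSeq places on the opposite strand. The SSC replicate 3 peak covered the first 861 bases at percentile 62.3. The other 4 lists held no Dusp6 peak, and the difference in covered bases (212 bases, exact two-sided permutation p = 1) turned to -287 bases without iNSC replicate 2.

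The 86 peaks of the 10 genes formed 32 separate sites once overlapping peaks on the same strand were merged. Of these, 2 sites were iNSC-only (1 each in Frs2 and Spred2), a share of 6.25% beside 3.43% of all sites in genes. SSC-only sites numbered 4 (2 in Frs2 and 1 each in Spry1 and Spred2), a share of 12.5% beside 5.59% of all sites in genes. Another 5 sites were listed in all 6 libraries, and 14 in a single library. Shares of all sites in genes were not computed for these 2 counts. Frs2 and Spred2 thus each held sites of both kinds, in genes that had peaks in all 6 lists. That rests on narrow sites, of 86 and 83 bases (SSC-only, Frs2) and of 65 bases or less (iNSC-only, Spred2). At a minimum width of 100 bases these sites dropped out, and neither gene held sites of both kinds. The 2 iNSC-only sites at that width were each in Frs2, 1 of them through the loss of a 77-base peak in SSC replicate 1. The site calls were also sensitive to score. In the better-scoring 50% of each list no site was SSC-only and 1 was iNSC-only, in Spred1, where the weaker SSC peak dropped out. Neither of the 2 iNSC-only sites named above was kept, with percentiles of 24.2 (Frs2) and 25.8 (Spred2) in iNSC replicate 1. Without SSC replicate 1 the iNSC-only sites numbered 4. Shares of all sites were not computed for these settings. The peaks were wider in iNSCs (median 1281 bases over 37 peaks) than in SSCs (297 bases over 49 peaks), as were the lists as a whole. The capped score was reached by 9 of the 37 iNSC peaks and by 0 of the 49 SSC peaks, beside 15.0% to 17.6% and 3.73% to 7.56% of all peaks in the lists.

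**Figure D3:**
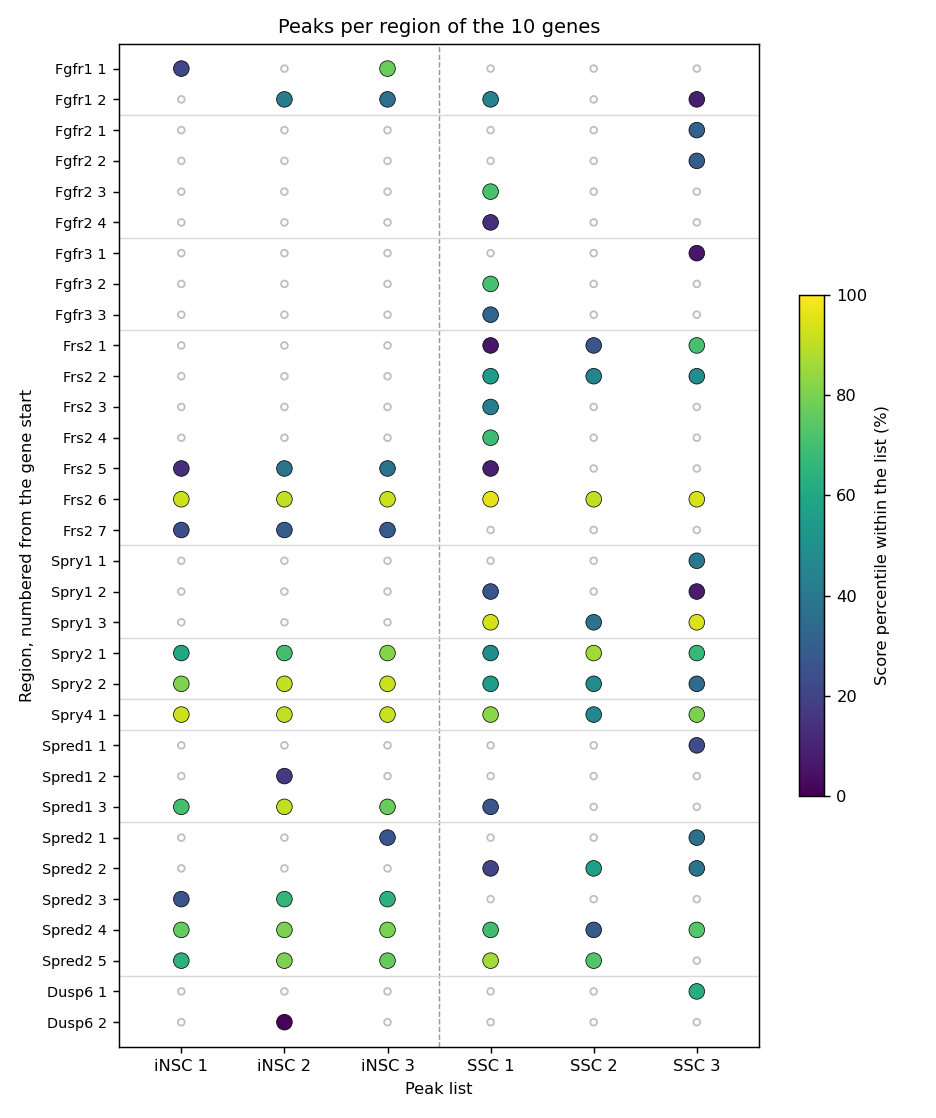
The 32 sites of the 10 genes (rows, numbered from the gene start) in the 6 peak lists (columns, iNSC left of the dashed line, SSC right of it); a filled circle is a listed peak, coloured by its score percentile within that list, and a small open circle is no peak. Sites 1 and 2 of Frs2, 3 of Spry1 and 2 of Spred2 are filled in the 3 SSC columns alone, and site 7 of Frs2 and 3 of Spred2 in the 3 iNSC columns alone.

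Across the 10 genes, covered bases did not overlap between the groups for 3. Frs2 and Spred2 were higher in iNSCs (2 of 10, beside 18.1% of all genes with a peak), and Spry1 was higher in SSCs (1 of 10, beside 15.1%). Without SSC replicate 1, or without SSC replicate 2, 5 genes did not overlap in place of 3, and with peaks at least 100 bases wide 2 did not. The median difference was 273 bases over the 10 genes and -46.3 bases over all genes with a peak. In sum the 10 genes held 16149, 17657 and 16533 covered bases in the iNSC lists, against 15672, 12193 and 13584 in the SSC lists. Per 1000 covered bases of each list these were 1.47, 1.51 and 1.44 in iNSCs and 1.46, 1.39 and 1.36 in SSCs. By number of peaks, Spry1 alone separated the groups without overlap, with more in SSCs, as 16.1% of all genes with a peak did (4.68% had more in iNSCs), and 3 genes did so without SSC replicate 2. The shares of all genes are those with all peaks and libraries and were not computed for the settings that leave some out.

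**Figure D4:**
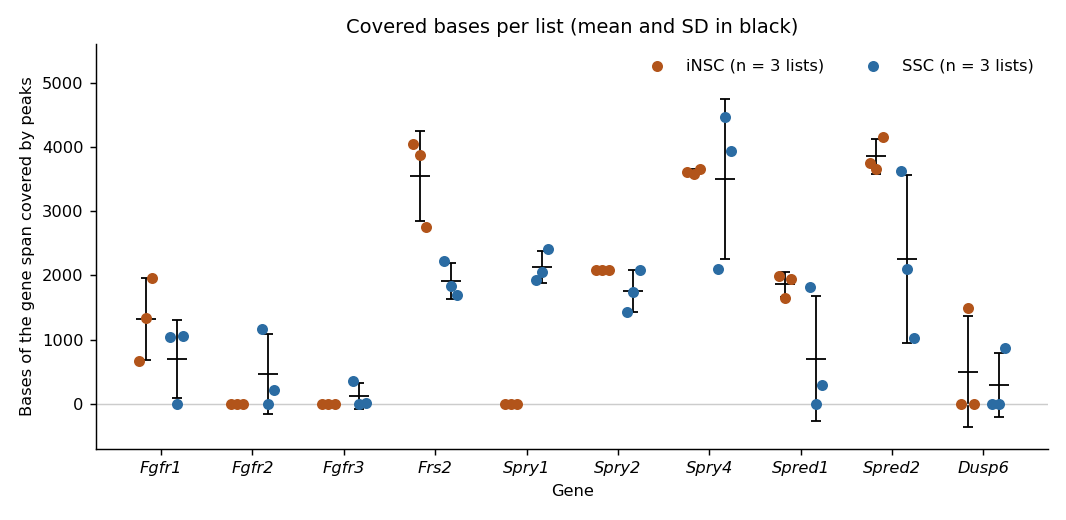
Bases of each gene span covered by peaks (y axis) for the 10 genes (x axis); each point is 1 list (iNSC left in orange, SSC right in blue), and the black bar and whiskers are the mean and SD of 3 lists. The iNSC points of Frs2 and Spred2 lie above all SSC points, and the SSC points of Spry1 lie between 1925 and 2414 bases while the iNSC points are at 0.

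Several peaks lay directly on an annotated gene start, and the bases there are shown because the peaks over Spry2 and Frs2 end exactly at that position while differing in which lists hold them. Of the 10 genes, 8 matched the RefSeq table of start sequences (GRCm38.p6). The peak over the Spry2 start was listed in all 6 libraries, and that over the Frs2 start in none of the iNSC lists and in each of the 3 SSC lists. The Spred2 start lay in a peak of 1 iNSC and 1 SSC list, and the Dusp6 start and the second Fgfr3 start in a peak of 1 SSC list each. Capitals mark the letters GGAC, the core of the known m6A consensus, searched on the transcript strand in the 50 bases after each start. The sequences are 5′ to 3′ on the transcript strand, bases 1 to 30 of each start, except Spred2, for which bases 21 to 50 are given.
Spry2 (chr14:105896790-105896819, minus strand): ccgcgtgcgcttctggaagggaggtcatct
Frs2 (chr10:117148445-117148474, minus strand): ccgagcagggggtcaggtcgcggggagagt
Spred2 (chr11:19924462-19924491, plus strand): agtggcgagatggggctcGGACggggcgcc
Dusp6 (chr10:99263231-99263260, plus strand): atccattgaggagctgcctcgcacaggggg
Fgfr3, second start (chr5:33722306-33722335, plus strand): tctccacagaggcgttctcccaccggcgcc
GGAC was found in the 50-base window of Spred2 and in no other window of the 5, and 18.9% of the 32851 windows in the table held it. The peaks are longer than these windows, so a missing match says only that these letters are not in the window. The starts of Spry1, Spred1 and Fgfr2 lay in no peak.

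The genes most like each of the 10 in covered bases over the 6 lists were found by Euclidean distance. Closest to Spry1 were Prss35 (distance 120 bases) and Thbs1 (146 bases), which had 0 covered bases in the 3 iNSC lists as well. Prss35 covered bases were 2024, 2111 and 2429 in the SSC lists. Closest to Spry4 was Zfp574 (666 bases), closest to Spred2 was Hcfc1 (624 bases), closest to Spry2 was Hnrnpm (380 bases) and closest to Spred1 was Met (373 bases). Closest to Fgfr1 was Dusp5 (646 bases), a nuclear phosphatase of ERK, which like Fgfr1 had no peak in SSC replicate 2. For Frs2 the nearest gene, Etv6, was 1004 bases away. Distances grow with covered bases, so each was also divided by the Euclidean length of the gene's own 6 values. This ratio was largest for Fgfr1 and Dusp5 (0.225), so Dusp5 was not a close match. It was 0.142 for Frs2 and Etv6, and smallest for Fgfr3 and Abhd14a (0.0199), followed by Spry1 and Prss35 (0.0325) and Fgfr2 and Bmp7 (0.038). The Fgfr3 match rests on 1 library, SSC replicate 1, with 355 bases in Fgfr3 and 354 in Abhd14a. Abhd14a had 0 in every other list.

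Of the 84 other genes of the FGF pathway that were listed by role, 67 had a peak in at least 1 library. In the iNSC lists 40, 42 and 42 of them had a peak, against 53, 44 and 56 in the SSC lists. Of all protein-coding genes, 6953 to 7512 had a peak in the iNSC lists and 8523 to 10361 in the SSC lists. A higher SSC count is thus not particular to these genes. By the same rule 2 were iNSC-only (2.99% of the 67, beside 2.44% of all genes with a peak) and 7 were SSC-only (10.4%, beside 10.9%), so these shares were near those of all genes. Ligand genes had a peak in 4, 3 and 3 of 22 cases in the iNSC lists, against 9, 6 and 9 in the SSC lists. Fgf7, the keratinocyte growth factor, was the iNSC-only ligand, with 3 peaks in each iNSC list, the best of them at the capped score. All 9 of its peaks also lay in the span of Fam227b, which RefSeq places on the opposite strand, and all 9 were on the strand of Fgf7. The SSC-only ligands were Fgf9, which acts in testis development, with 2, 2 and 3 peaks (percentiles 87.4, 76.2 and 82.8), Fgf18 with 1, 1 and 2 peaks, and Fgf13, an intracellular family member that does not signal through the receptors, with 1 peak in each. Fgf2, the ligand supplied in both media, had 1 peak in each of the 6 lists, at percentiles of 41.7, 33.2 and 49.2 in iNSCs and 64.7, 36.5 and 58.6 in SSCs. More testis somatic markers also had peaks in the SSC lists (above), and their part in the ligand peaks was not tested.

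Genes that handle heparan sulfate, the co-receptor sugar, included further SSC-only cases. Sulf1 and Sulf2, extracellular sulfatases that trim heparan sulfate and so modulate FGF binding, had no peak in any iNSC list, against 4, 3 and 2 (Sulf1) and 3, 1 and 4 (Sulf2) in the SSC lists. Gpc3, a cell-surface heparan sulfate proteoglycan, likewise had none in iNSCs, against 1, 4 and 2 in SSCs. Sdc3, another such proteoglycan, had 3, 2 and 3 peaks in iNSCs, against 1, 0 and 0 in SSCs, and Gpc2, Gpc4 and Sdc4 had none in any list. The enzymes that build or sulfate the chain included Ext1, Hs2st1, Hs6st1 and Ndst1 with peaks in all 6 lists. Ext2, the partner of Ext1 in chain synthesis, had 1 peak in each iNSC list, against 3, 0 and 1 in the SSC lists. Among adaptors and kinases, 16, 15 and 14 of 21 genes had a peak in the iNSC lists, against 16, 14 and 18 in the SSC lists. The RAS activators Sos1 and Sos2 had peaks in all 6 lists, Sos1 with 10, 11 and 9 in iNSCs and 16, 7 and 7 in SSCs.

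Other inhibitors had a peak in 6, 7 and 7 of 10 cases in the iNSC lists, against 6 in each SSC list, and none was called for either group. Dusp7, a phosphatase related to Dusp6, Nf1 (neurofibromin, the partner of SPRED proteins) and Rasa1, another RAS GTPase activator, had peaks in all 6 lists. Among the target transcription factors, Etv1, an ETS factor downstream of FGF, was iNSC-only, with 3, 3 and 4 peaks at percentiles of 64.2, 53.7 and 45.2. That call was lost in the better-scoring 50% of each list. Etv4 of the same subfamily had none in iNSCs, against 2, 0 and 1 in SSCs. Etv5, a transcription factor needed for SSC self-renewal, had 2, 3 and 2 peaks in iNSCs, against 1, 0 and 2 in SSCs. Egr1, Elk4, Fosl1 and Myc had peaks in all 6 lists. Without SSC replicate 2 the SSC-only genes of this list numbered 11, and at equal list length only Fgf9 of the 7 was left while 4 genes were iNSC-only (Fgf7, Sdc3, Spred3 and Etv1). Shares of all genes were not computed for these settings.

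**Figure D5:**
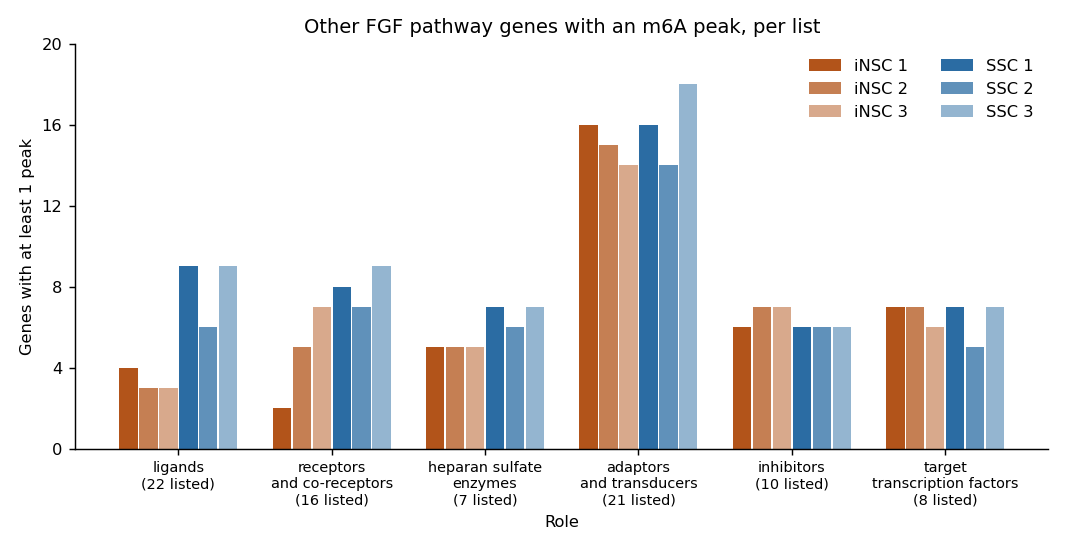
Number of other FGF pathway genes with at least 1 peak (y axis) by role (x axis, with the number of genes listed); each bar is 1 list, iNSC in orange left of SSC in blue. Ligand bars stand at 3 to 4 in iNSCs and 6 to 9 in SSCs, and inhibitor bars at 6 to 7 in iNSCs and at 6 in SSCs.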

How the data were processed

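Poly(A) RNA was cut to about 200 nt and enriched with an m6A antibody before directional library preparation, per the labels' protocols, although the series title speaks of MeDIP. Cutadapt 1.9.3, HISAT2 2.0.4 and mm9 appear in the submitters' processing notes, and the version and threshold of the peak caller are not given in the sources. The authors deposited 1 peak list for each of 6 IP libraries, with a score per peak that starts at 50 and has no stated unit. The score often stands at 3100 and reaches at most 3233.06. It was used only within its list. Depth is unknown, so no interval or floor was given.

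Peak edges fell on GRCm38.p6 gene edges for 4.9% to 12.0% of peaks, against at most 0.0187% after a shift of 10000 bases, so coordinates are GRCm38, 1-based, and not mm9. Exon models were not used. The 86 peaks of the 10 genes were all on the strand of their gene. A peak over several genes counted for each (3816 peaks in the 6 lists).

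Group means were compared by exact two-sided permutation tests (Python 3.11.15, numpy 2.4.6), run over all 13753 genes and tested on simulated data. The smallest p for 3 against 3 is 0.1. Groups came from the titles. Genes named were the 10, pathway genes called for 1 group, and the nearest genes by covered bases; further pathway genes, among them Fgf2, Sos1, Etv4 and Etv5, were named after their values were seen. A pathway gene that this naming rule selects is not reported here. The 10 genes and the lists were chosen with earlier results of these data known. Alternatives were the better-scoring 50% of each list, equal list length, a minimum width of 100 bases, 50% of a peak in the gene, the gene's strand, 2 of 3 libraries, regions merged at 50% overlap, the replicate block, and leaving out each library.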

Additional observations from a re-analysis of the deposited data

How the results depend on the processing

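In the better-scoring 50% of each list, 1 of the 10 genes was iNSC-only (Spred1), 0 were SSC-only, 1 site was iNSC-only and 0 were SSC-only, 4 pathway genes were SSC-only (Fgf9, Flrt2, Frs3 and Nf1, of which Fgf9 alone was among the 7 with all peaks), Fgf7, Sdc3 and Spred3 were iNSC-only, and 2 genes separated the groups by number of peaks. At equal list length, 2 of the 10 genes were iNSC-only, 4 sites were iNSC-only and 2 SSC-only, 4 pathway genes were iNSC-only and 1 SSC-only, and 6 genes separated the groups by covered bases and 4 by number of peaks. At a minimum width of 100 bases, 2 sites were iNSC-only, each in Frs2, 2 were SSC-only, and 2 genes separated the groups by covered bases. With 2 of 3 libraries, 3 of the 10 genes and 13 pathway genes were SSC-only. Leaving out 1 library gave 1 to 3 SSC-only genes of the 10, 7 to 11 SSC-only pathway genes, 2 to 4 iNSC-only sites, and 3 to 5 genes separated by covered bases and 1 to 3 by number of peaks. The highest counts came without SSC replicate 2, except the 4 sites, which came without SSC replicate 1, and the 5 genes, which came without either. All these counts are of the 10 genes and the pathway genes alone. Shares of all genes or sites were not computed for these settings, so the counts cannot be set beside the shares given above for all peaks. Of 180 gene values recomputed under settings that moved any of them, 6 changed sign. The 50%-of-peak and strand settings moved none, and the block cannot. Differences in peaks of Spry2, Spry4, Spred2 and Dusp6 were 0 with all peaks, so they could not change sign by this count. That of Spred2 was 1.67 at equal length and -1 at the minimum width. A difference that fell to 0 also counted as kept. Dusp6 covered bases were -287 in the better-scoring 50%, at equal length and without iNSC replicate 2 (-287 to 499 over libraries left out). The difference in Frs2 peaks, -1 with all peaks, was 0.333 at equal length and 1.33 at the minimum width. Spry4 covered bases were -588 without SSC replicate 1 and 599 without SSC replicate 2, the range over libraries left out. Beyond the removal of peaks or libraries, the cause was not tested.

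Replicate numbers are shared by the groups, but deviations of same-numbered libraries from their group means correlated at 0.0112, -0.0184 and 0.0335 over genes, and not every library correlated best with its own number, so the numbers were not taken to pair the samples. With the replicate block, the differences in covered bases are the same by construction, 1635 for Frs2, -2128 for Spry1 and 1605 for Spred2 (exact sign-flip permutation p = 0.25 each, the smallest 3 pairs allow). Unknown depth and the absence of input values limit every missing peak.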
